A study of Mus musculus with 11 samples.

Results

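Antigen presentation was described here through 8 genes of the major histocompatibility complex (MHC) pathways, measured in the mouse hippocampus after a cortical stroke. The genes were taken by symbol from a table of 22377 genes, and all 8 passed the minimum for testing, a mean of 1 CPM (a gene's reads scaled to a common library total), as 16057 genes did. The class I genes were H2-K1, H2-D1, B2m and Tap1. The class II genes were Cd74, H2-Aa, H2-Ab1 and H2-Eb1. High class II values at 2 months were named when the genes were chosen, so those values are a description and carry no test.

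Capped 5′ ends of transcripts were counted by CAGE (cap analysis of gene expression) in the whole hippocampus of male C57BL/6N mice. Photothrombosis (PT) produced the infarct: rose bengal (35 mg/kg), a light-activated dye, was combined with 30 min of 565 nm LED light at 200 mW on a 3.5 mm circle over the left parietal lobe. Levetiracetam (LEV), an anti-seizure drug, was supplied in drinking water at 5 mg/mL. There were 11 libraries, 1 per group: naive, and both sides (infarcted and non-infarcted) of 5 PT conditions. These were 7 days without LEV (PT 7 d) or with it (PT 7 d LEV), 1 month without (PT 1 m) or with it (PT 1 m LEV), and 2 months with LEV withdrawn (PT 2 m). The sample labels give a withdrawal of 2 weeks for the last condition, and the series text gives 1 week. That text also starts LEV 1 month after PT, so the timing of LEV in the 7 d LEV and 1 m LEV mice is not known. The series used mice of 8 to 10 and of 65 to 85 weeks. The age of each library, the number of mice behind it and whether both sides came from the same mice are not given, so the tests measure only the spread between these libraries.

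MHC class I molecules are on most nucleated cells and show peptides from the cell's own proteins to CD8+ T cells. H2-K1 and H2-D1 encode heavy chains, B2m the light chain beta-2-microglobulin that they need at the surface, and Tap1 a subunit of the transporter that carries peptides into the endoplasmic reticulum. MHC class II molecules are largely limited to antigen-presenting cells and show peptides from ingested proteins to CD4+ T cells. H2-Aa and H2-Ab1 encode the alpha and beta chains of I-A, H2-Eb1 the beta chain of I-E, and Cd74 the invariant chain that guides class II molecules to the compartment where peptides are loaded. C57BL/6 mice lack a working alpha chain gene for I-E, so they do not display I-E on the cell surface. In the healthy brain, class II is mostly found on macrophages and dendritic cells of the meninges, vessels and choroid plexus, while microglia carry little and can gain it on activation.

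The promoters are shown because CAGE reads start there and because class II and class I genes share a known promoter module, whose boxes are bound by RFX, CREB and NF-Y factors. RefSeq windows of build GRCm38.p6 were matched for 6 of the 8 genes. The 200 bases before the start of 2 class II and 2 class I genes are given 5′ to 3′ on the gene's strand. Capitals mark the Y box (CCAAT, read as ATTGG on the other strand) and the end of the X box (ACNGATG), searched on both strands with no overlap between them.
H2-Aa, chr17:34287824-34288023, minus strand: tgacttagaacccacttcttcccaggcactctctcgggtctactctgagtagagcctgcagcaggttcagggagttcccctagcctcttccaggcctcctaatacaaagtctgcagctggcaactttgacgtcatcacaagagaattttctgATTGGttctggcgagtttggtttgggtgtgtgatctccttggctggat
H2-Eb1, chr17:34305667-34305866, plus strand: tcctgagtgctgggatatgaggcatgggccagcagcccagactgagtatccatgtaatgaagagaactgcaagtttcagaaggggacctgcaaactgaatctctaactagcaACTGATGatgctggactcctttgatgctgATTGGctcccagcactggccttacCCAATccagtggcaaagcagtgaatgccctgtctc
B2m, chr2:122147487-122147686, plus strand: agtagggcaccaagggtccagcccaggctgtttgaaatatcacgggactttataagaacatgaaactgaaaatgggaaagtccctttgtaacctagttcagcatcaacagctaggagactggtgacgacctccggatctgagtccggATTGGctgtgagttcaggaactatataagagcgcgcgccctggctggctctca
H2-K1, chr17:34000348-34000547, minus strand: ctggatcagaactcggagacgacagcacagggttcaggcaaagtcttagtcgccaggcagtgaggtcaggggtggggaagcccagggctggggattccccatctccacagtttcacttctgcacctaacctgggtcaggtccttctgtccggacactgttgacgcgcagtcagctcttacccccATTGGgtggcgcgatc

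All 4 windows held the Y box letters, which 33.8% of 32817 RefSeq windows of 250 bases before the start also held. H2-Eb1 carried ACTGATG at -88 to -82 and ATTGG at -59 to -55, counted back from the start, and a CCAAT at -35 to -31. ACNGATG was in 8.31% of windows. In B2m, ATTGG stood at -53 to -49 and a core of interferon-stimulated elements (GAAA, any 2 bases, GAAA), found in 2.97% of windows, was matched by GAAACTGAAA at -139 to -130. The H2-K1 window held GGGGATTCCC at -111 to -102, a match to a loose NF-kappa-B core (GGG, any 5 bases, CC), which 45.8% of windows had; matches to it overlapped each other. The class I gene H2-D1, not printed, held ACTGATG at -106 to -100 as well, with Y box letters at -76 to -72 and -53 to -49. These matches describe letters, not binding. H2-K1 and H2-D1 are paralogs. Their upstream windows of 250 bases shared 170 of 190 aligned bases (89.5%), with unaligned bases left out. The rule that divided reads between them is not stated in the sources used, so the split between these 2 genes is uncertain.

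Library totals were 13382623 to 22377376 reads, and a count of 0 allows up to 3 reads (0.134 to 0.224 CPM). Intervals below are exact Poisson bounds at 95%, which cover counting error only. Hippocampal neuron markers were present in each library (Prox1 46.1 to 68.0 CPM, Wfs1 82.7 to 128 CPM). The summed choroid plexus genes reached only 55.0 CPM (PT 1 m infarcted) and 102 CPM (PT 1 m LEV non-infarcted) in 2 libraries, against 1257 to 4796 CPM in the other 9. Libraries of 1 m and naive also stood apart from those of 7 d and 2 m: the groups did not overlap in 2998 of 16057 genes (18.7%). Fewer cells of a type and less RNA per cell cannot be told apart in these whole-tissue libraries.

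The class I chains were highest on the infarcted side at 7 d. H2-K1 (chr17:33996017-34000347) was at 46.8 CPM in the naive library. On the infarcted side it was 76.2 CPM at PT 7 d, 66.4 at PT 7 d LEV, 51.6 at PT 1 m, 59.1 at PT 1 m LEV and 56.6 at PT 2 m. On the non-infarcted side it was, in the same order, 37.3, 40.1, 57.0, 45.4 and 46.0 CPM. The PT 7 d infarcted value (interval 72.2 to 80.4 CPM) lay above that of every other library, and PT 1 m was the one condition with more H2-K1 on the non-infarcted side.

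H2-D1 (chr17:35262730-35267499) was at 55.3 CPM in the naive library. Its infarcted-side values were 128 CPM at PT 7 d, 96.8 at PT 7 d LEV, 76.2 at PT 1 m, 81.9 at PT 1 m LEV and 84.0 at PT 2 m. Its non-infarcted values were 57.6, 57.1, 68.2, 55.7 and 74.6 CPM. The infarcted side was the higher in all 5 conditions, which 5.26% of tested genes also showed, and the naive library held the lowest of the 11 values. The intervals of the lowest 4 libraries, 55.3 to 57.6 CPM, overlapped.

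B2m (chr2:122147686-122153083) was at 41.2 CPM in the naive library and reached 123 CPM at PT 7 d and 98.5 CPM at PT 7 d LEV on the infarcted side. Infarcted values then were 46.9 CPM at PT 1 m, 82.7 at PT 1 m LEV and 50.2 at PT 2 m. The non-infarcted side had 56.4, 62.9, 49.7, 69.0 and 37.5 CPM in the same order. Both 1 m LEV libraries were above both 1 m libraries without LEV, and the 2 m non-infarcted library was the lowest of the 11, with an interval of 34.6 to 40.5 CPM that overlapped the naive one. H2-K1, H2-D1 and B2m each had their highest value in PT 7 d infarcted, as did 10.3% of genes.

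Tap1 (chr17:34187553-34197225) had its highest value in another library than the chains. It ranged from 1.13 CPM (PT 7 d LEV non-infarcted) to 3.14 CPM (PT 2 m non-infarcted) on 20 to 55 reads per library, with 1.79 CPM in the naive library. Its PT 7 d values were 2.34 CPM (infarcted) and 1.74 CPM (non-infarcted), and their intervals (1.68 to 3.18 and 1.16 to 2.52 CPM) overlapped. The CPM ratio of the sides was 1.34 (0.811 to 2.255) at PT 7 d and 2.025 (1.17 to 3.63) at PT 7 d LEV. At PT 7 d LEV the ratios of H2-K1, H2-D1 and B2m were 1.66, 1.70 and 1.57. So few reads do not separate Tap1 from the chains at 7 d.

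**Figure D1:**
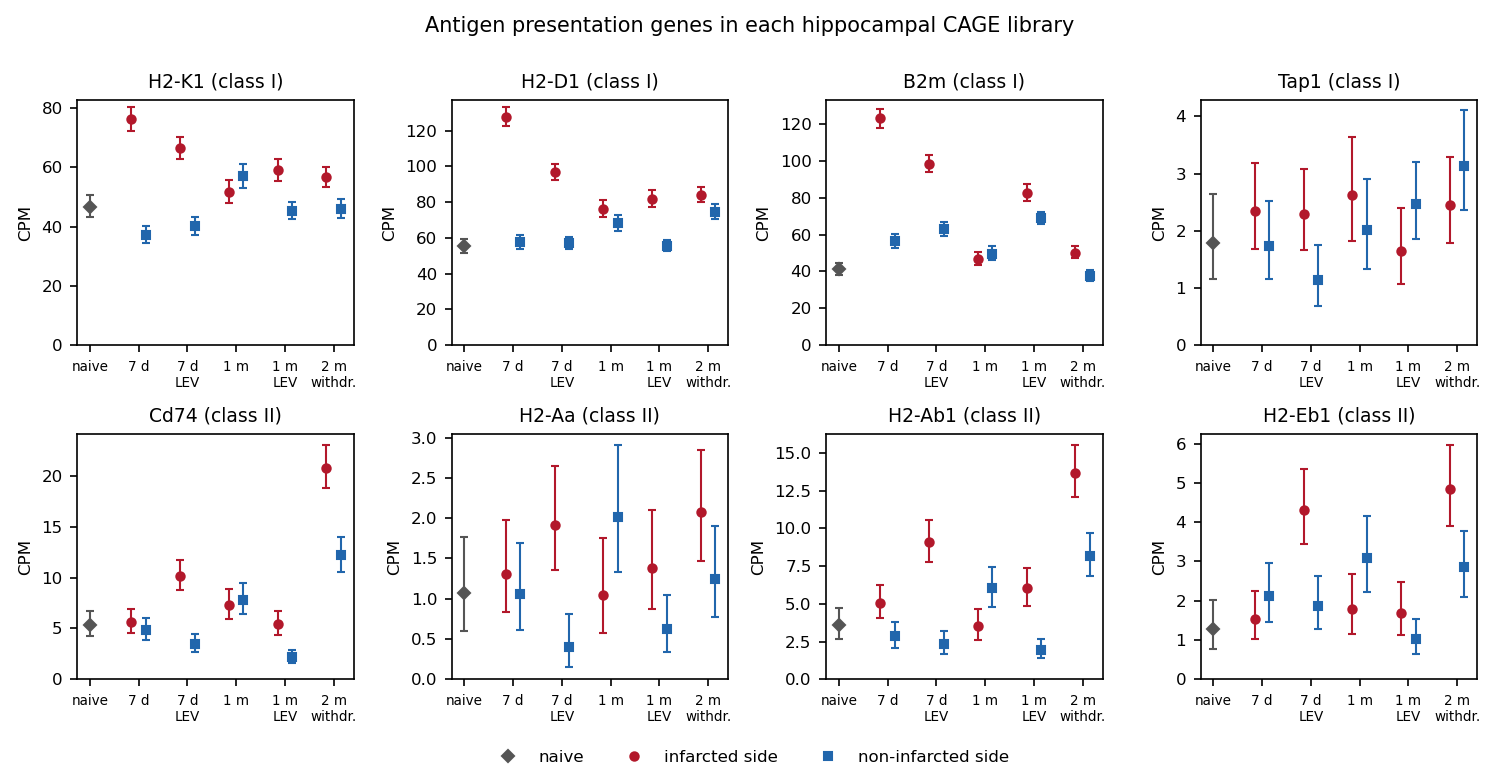
CPM of each of the 8 genes in each of the 11 libraries, by condition (horizontal) and side (colour), with exact Poisson 95% intervals for counting error as bars; each panel has its own linear axis from 0. The class I chains peak in PT 7 d infarcted (H2-D1 128 CPM, B2m 123 CPM) and Cd74 in PT 2 m infarcted (20.8 CPM), while Tap1 shows wide, overlapping intervals.

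The class II genes were highest in the 2 m infarcted library, and PT 7 d LEV infarcted was among the next 2 libraries for each of them. Cd74 (chr18:60803848-60812652) was at 5.36 CPM in the naive library. On the infarcted side it was 5.66 CPM at PT 7 d, 10.2 at PT 7 d LEV, 7.32 at PT 1 m, 5.41 at PT 1 m LEV and 20.8 at PT 2 m. On the non-infarcted side it was 4.86, 3.50, 7.82, 2.19 and 12.2 CPM. Both 2 m libraries were above the other 9, a pattern 18.2% of genes shared; the interval of the 2 m infarcted library (18.78 to 23.01 CPM) was clear of all others, and that of the 2 m non-infarcted library (10.6 to 13.9 CPM) overlapped PT 7 d LEV infarcted (8.82 to 11.7 CPM).

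H2-Ab1 (chr17:34257689-34269419) was at 3.57 CPM in the naive library. Its infarcted values were 5.09 CPM at PT 7 d, 9.10 at PT 7 d LEV, 3.51 at PT 1 m, 6.04 at PT 1 m LEV and 13.7 at PT 2 m. Its non-infarcted values were 2.87, 2.37, 6.03, 1.97 and 8.19 CPM. The 2 m infarcted library was again clear of the rest, and PT 7 d LEV infarcted ranked above the 2 m non-infarcted library, with overlapping intervals.

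H2-Eb1 (chr17:34305867-34316674) was at 1.29 CPM in the naive library. On the infarcted side it had 1.54 CPM at PT 7 d, 4.32 at PT 7 d LEV, 1.79 at PT 1 m, 1.70 at PT 1 m LEV and 4.85 at PT 2 m. The other side had 2.12, 1.86, 3.08, 1.03 and 2.85 CPM. The highest 2 values, 4.85 CPM (3.90 to 5.97) and 4.32 CPM (3.44 to 5.35), could not be separated by their counting intervals.

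H2-Aa (chr17:34282744-34287823), the alpha chain that pairs with the H2-Ab1 product, rested on 7 to 38 reads per library. It was at 1.07 CPM in the naive library. Its infarcted values were 1.31 CPM at PT 7 d, 1.92 at PT 7 d LEV, 1.05 at PT 1 m, 1.38 at PT 1 m LEV and 2.07 at PT 2 m. The non-infarcted side had 1.06, 0.396, 2.01, 0.626 and 1.25 CPM. PT 1 m non-infarcted was thus close to PT 2 m infarcted, with overlapping intervals, and PT 2 m non-infarcted ranked 6 of 11. Cd74, H2-Aa, H2-Ab1 and H2-Eb1 all had their highest value in PT 2 m infarcted, as 19.5% of genes did. Cd74, H2-Ab1 and H2-Eb1 had their lowest in PT 1 m LEV non-infarcted, as 11.9% of genes did.

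At 2 m the classes differed from the naive library by different amounts. On the scale of log2(CPM + 1), used for every difference below, the class II median was 1.52 above naive on the infarcted and 0.88 on the non-infarcted side, and the class I medians were 0.29 and 0.20. The median of all tested genes was 0.09 and 0.05. Cd74 was higher by 1.78 and 1.05, a CPM ratio of 3.89 (3.03 to 5.05) and 2.27 (1.735 to 2.999). H2-Ab1 was higher by 1.69 and 1.01. These 2 of the 8 genes reached a difference of 1 on both sides, which 0.504% of genes did. All 4 class II genes and 2 of 4 class I genes (H2-D1, Tap1) were above naive on both sides, as were 48.9% of genes. H2-Eb1 differed by 1.36 and 0.75, H2-Aa by 0.57 and 0.12 and H2-D1 by 0.59 and 0.43. With 1 naive library there is no test.

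Set against PT 1 m LEV, the 2 m libraries had more class II on both sides. Cd74 was higher by 1.77 on the infarcted and 2.04 on the non-infarcted side, from 5.41 to 20.8 CPM and from 2.19 to 12.2 CPM. H2-Ab1 was higher by 1.06 and 1.63, and these 2 again were the members past 1 on both sides, against 1.2% of all genes. In the same comparison 4 of 6 choroid plexus genes and 3 of 5 meningeal fibroblast genes were past 1 on both sides, and the non-infarcted PT 1 m LEV library is 1 of the 2 low in choroid plexus genes (102 CPM). The part of these cells was not tested. H2-Eb1 was higher by 1.12 and 0.92. H2-Aa was higher by 0.36 and 0.47. Among class I genes, B2m was lower (-0.71 and -0.86), H2-K1 differed by -0.06 and 0.02, and H2-D1 (0.04 and 0.42) and Tap1 (0.39 and 0.26) were higher. LEV schedule, withdrawal, time after PT and the library differences between 1 m and 2 m cannot be told apart here.

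Between sides, the class I chains were higher on the infarcted side at 7 d, and at PT 1 m the CPM ratios were 0.905 (H2-K1), 1.12 (H2-D1) and 0.944 (B2m). H2-K1 averaged 62.0 ± 9.57 CPM (infarcted) and 45.1 ± 7.59 CPM (non-infarcted) (SD, n = 5 libraries of different conditions). H2-D1 averaged 93.3 ± 20.6 and 62.6 ± 8.37 CPM, and B2m 80.3 ± 32.3 and 55.1 ± 12.2 CPM (SD, n = 5). The side ranges overlapped for H2-K1 and B2m, and for H2-D1 they did not (76.2 to 128 against 55.7 to 74.6 CPM). The nearest H2-D1 values had overlapping counting intervals: 71.6 to 81.0 CPM in PT 1 m infarcted and 70.6 to 78.9 CPM in PT 2 m non-infarcted. The share of all genes with ranges apart was not counted. Among class II genes, Cd74 averaged 9.88 ± 6.40 and 6.11 ± 3.98 CPM and H2-Ab1 7.50 ± 4.04 and 4.28 ± 2.71 CPM (SD, n = 5), with overlapping ranges.

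With condition as a block, limma gave side differences of 0.55 for H2-D1 (SE 0.11, adjusted p = 0.339), 0.47 for B2m (SE 0.12, adjusted p = 0.418) and 0.45 for H2-K1 (SE 0.12, adjusted p = 0.418). Cd74 had 0.63 (SE 0.17, adjusted p = 0.418) and H2-Ab1 0.71 (SE 0.24, adjusted p = 0.516). None of the 8 passed, and limma called 0 of 16057 genes (0%). With the other tools, edgeR called 0 and DESeq2 14 genes. At an unadjusted p under 0.05 limma had 963 genes higher (6%) and 258 lower (1.61%), the 5 genes above among the higher ones. H2-K1, B2m, Cd74, H2-Aa and H2-Ab1 were higher on the infarcted side in 4 conditions and lower at PT 1 m, as were 4.86% of genes. Without the PT 1 m pair, limma called 50 genes (0.311%), among them H2-K1 (0.60, adjusted p = 0.0363), H2-D1 (0.65, adjusted p = 0.0439), B2m (0.61, adjusted p = 0.0442), Cd74 (0.81, adjusted p = 0.0492) and H2-Ab1 (1.04, adjusted p = 0.0219). That pair holds a library low in choroid plexus genes, and without both 1 m pairs 0 genes were called, with adjusted p of 0.0866 to 0.221 for these 5.

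The size of the side difference moved differently in the classes. The class I median was 1.06 at PT 7 d, 0.68 at PT 7 d LEV, 0.04 at PT 1 m, 0.32 at PT 1 m LEV and 0.23 at PT 2 m. The class II median was 0.18, 1.19, -0.55, 0.78 and 0.64 in that order. Medians over all tested genes stayed between -0.005 and 0.04. At PT 7 d, H2-D1 was 2.22-fold higher on the infarcted side by CPM (2.05 to 2.40), B2m 2.18-fold (2.02 to 2.36) and H2-K1 2.05-fold (1.86 to 2.26). H2-K1, H2-D1 and B2m exceeded 0.5 in both 7 d conditions, which 1.23% of genes did. At PT 7 d LEV, H2-Ab1 was 3.84-fold higher (2.73 to 5.51) and Cd74 2.91-fold (2.18 to 3.94). No test between the classes was made, because members of a class are not replicates.

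**Figure D2:**
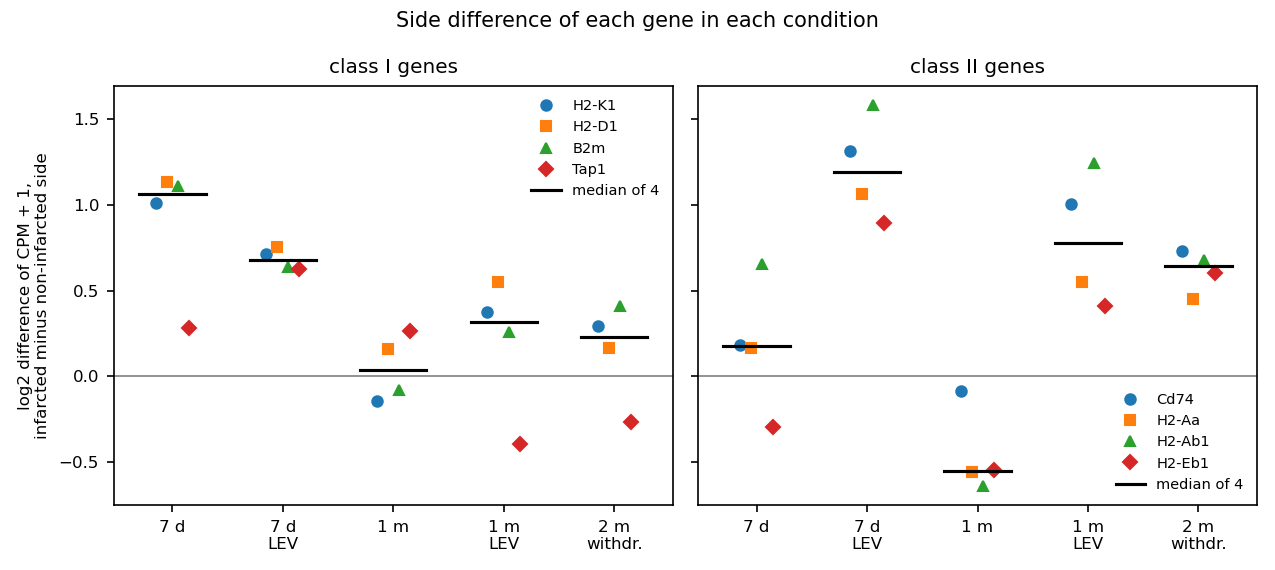
Difference of log2(CPM + 1), infarcted minus non-infarcted side, for each gene (marker) in the 5 PT conditions, class I left and class II right; black bars are medians of the 4 genes and 0 means equal sides. Class I falls from a median of 1.06 at PT 7 d to 0.04 at PT 1 m, and class II is highest at PT 7 d LEV (1.19) and below 0 at PT 1 m (-0.55).

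Whether the side difference itself depended on time or LEV was tested over the 4 conditions at 7 d and 1 m. By time, the side difference of H2-K1 was smaller at 1 m by 0.75 (SE 0.17), that of H2-D1 by 0.59 (SE 0.16) and that of B2m by 0.79 (SE 0.17), each with adjusted p = 0.835 by limma. Limma called 0 genes (0%), 4.02% of genes were lower at an unadjusted p under 0.05, and these 3 were among them. The class II members and Tap1 were not. Without the PT 7 d LEV pair these 3 passed (H2-K1 -0.90, adjusted p = 5.86e-04; H2-D1 -0.78, adjusted p = 0.00137; B2m -1.02, adjusted p = 1.36e-05; 1.22% of genes called). Without the PT 1 m LEV pair H2-K1 (adjusted p = 0.00688), B2m (adjusted p = 0.021) and H2-Ab1 (-1.76, adjusted p = 0.042) passed, with 0.33% of genes called, and without either of the other pairs no member did. By LEV, the side difference was larger with LEV for Cd74 by 1.11 (SE 0.23, adjusted p = 0.454), H2-Ab1 by 1.41 (SE 0.38, adjusted p = 0.726), H2-Eb1 by 1.07 (SE 0.28, adjusted p = 0.719) and H2-Aa by 1.00 (SE 0.35, adjusted p = 0.907). Limma again called 0 genes (0%), and at an unadjusted p under 0.05 all 4 class II genes and no class I gene were among the 2.77% that were higher. The class I differences by LEV were -0.16 to 0.11. Markers of other cells had the same direction: at an unadjusted p under 0.05, 6 of 6 choroid plexus genes (median 1.88) and 3 of 5 meningeal fibroblast genes (median 1.06) were higher by LEV, against a class II median of 1.09. Each 1 m condition has a library low in choroid plexus genes, on opposite sides, and the part of these cells in the class II difference was not tested. Without the PT 7 d pair all 4 class II genes passed (H2-Ab1 2.05, adjusted p = 9.03e-09; H2-Eb1, adjusted p = 0.0478), with 1.97% of genes called, and H2-K1 (0.69), H2-D1 (0.49) and B2m (0.53) passed too. Without the PT 1 m pair Cd74 passed (0.98, adjusted p = 0.0485; 2.6% of genes called), and H2-K1 (-0.47), H2-D1 (-0.48) and B2m (-0.66) passed in the opposite direction. Without either LEV pair no member passed. Each of these fits leaves 1 arm with 1 pair, assumed to vary like the others.

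LEV against no LEV, averaged over sides, moved none of the 8 genes past the threshold. Limma called 3 of 16057 genes (0.0187%), and none was a member. Cd74 averaged 5.33 ± 3.51 CPM with LEV and 6.41 ± 1.39 CPM without (SD, n = 4), a difference of -0.37 (SE 0.19, adjusted p = 0.823). B2m averaged 78.3 ± 15.8 and 69.0 ± 36.2 CPM (SD, n = 4), a difference of 0.28 (SE 0.14, adjusted p = 0.823). H2-Ab1 differed by -0.02 (SE 0.17, adjusted p = 0.990). By side, with LEV all 4 class II genes were higher at 7 d on the infarcted side (median 0.74) and lower on the other (median -0.29). At 1 m all 4 were lower on the non-infarcted side (median -1.13), and on the infarcted side H2-Ab1 (0.64) and H2-Aa (0.22) were higher and Cd74 (-0.38) and H2-Eb1 (-0.05) lower. On the non-infarcted side alone, Cd74 was lower with LEV by 0.92 (adjusted p = 0.0222 by limma, 0.324% of genes called). The lower library of that comparison at 1 m, PT 1 m LEV non-infarcted, was 1 of the 2 libraries low in choroid plexus genes.

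Between 7 d and 1 m, B2m was the member that passed. It averaged 85.2 ± 31.3 CPM at 7 d and 62.1 ± 16.9 CPM at 1 m (SD, n = 4), with overlapping ranges (56.4 to 123 and 46.9 to 82.7 CPM). The difference was -0.42 (SE 0.14, adjusted p = 0.0439 by limma). Limma called 2537 genes (15.8%), so 1 member of 8 was near the share of all genes. B2m passed in 5 of 21 alternatives, with adjusted p of 0.0131 to 0.939, and not by edgeR (0.200) or DESeq2 (0.225). Leaving out any 1 of 6 of the 8 libraries ended the call; without PT 7 d infarcted the difference was -0.21 (adjusted p = 0.346) and without PT 1 m infarcted -0.23 (adjusted p = 0.274). On the infarcted side alone it was lower by 0.81, and on the non-infarcted side alone the difference was -0.02. The 2 m values of B2m, 50.2 and 37.5 CPM, were below the 7 d range of 56.4 to 123 CPM. The interval of PT 2 m infarcted (47.05 to 53.6 CPM) overlapped that of PT 7 d non-infarcted (52.76 to 60.17 CPM) and lay above the naive one (37.91 to 44.71 CPM). Time and the split of the 1 m from the 7 d libraries cannot be told apart.

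Other genes of the pathways came from lists, with up to 4 named by mean level and genes that passed. No list member passed for side or for LEV. In class I peptide loading and proteasome genes, 11 of 13 were tested and 9 were above 0 for side, with a median of 0.07. The chaperones Canx (0.02) and Calr (0.03), the thiol oxidoreductase Pdia3 (0.07) and the immunoproteasome subunit Psmb10 (-0.06) had side differences within 0.1 of 0. For time, 2 of the 11 tested passed, near the 15.8% of all genes that limma called. Calr (-0.68, adjusted p = 8.2e-04) and the proteasome activator Psme2 (-0.47, adjusted p = 0.0156) fell from 7 d to 1 m by limma. Of the other class I genes, 11 of 16 were tested and all 11 were above 0 for side, with a median of 0.29 against 0.02 for all genes. The nonclassical H2-T23 had 0.43 (SE 0.13, adjusted p = 0.474), H2-Q4 0.41 (SE 0.12, adjusted p = 0.426), H2-T22 0.15 and the antibody receptor chain Fcgrt 0.05. H2-Q genes are close copies, so their reads may be shared.

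Class II processing genes had a smaller median difference from naive at 2 m than the 4 class II members, though not gene by gene. Of 16 listed, 14 were in the table and 9 were tested, with a median of 0.21 above naive in PT 2 m infarcted, and none was higher by 1 on both sides. Rfxap, an RFX subunit, was lower than naive by more than 1 on both sides (-1.32 and -1.14). The proteases that trim the invariant chain, Ctss, Ctsl and Lgmn, had their highest value in PT 7 d infarcted (100 CPM for Ctss, 66.1 for Ctsl and 120 for Lgmn), and Ctss was at 59.4 CPM in PT 2 m infarcted. H2-DMb1, a chain of the peptide exchanger, came nearest to 1 above naive, at 0.98 and 0.76 above naive. Both H2-DMb1 and Ctss (0.61 and 0.43) were further above naive than H2-Aa (0.57 and 0.12). Against PT 1 m LEV, H2-DMb1 was higher by 1.42 and 1.51. It was the 1 of the 9 past 1 on both sides in that comparison, against 1.2% of all genes. By time, 3 of the 9 tested passed, against 15.8% of all genes. H2-DMb1 fell by 1.13 from 7 d to 1 m (SE 0.16, adjusted p = 5.6e-05 by limma), Ctsl fell by 0.41 (adjusted p = 0.0209) and Rfxap rose by 0.47 (adjusted p = 0.00869). H2-DMb1 was 9.43 and 7.95 CPM at 2 m and 2.15 to 4.09 CPM at 1 m. Ciita, the class II master activator, was at 0 in 5 libraries and at most 0.156 CPM, under or near the level that a count of 0 allows, and was not tested.

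Of 6 co-stimulation genes 3 were tested, and Cd86, a ligand of CD28, fell from 7 d to 1 m by 0.74 (SE 0.19, adjusted p = 0.00939 by limma). Cd86 was at 3.49 CPM in PT 7 d infarcted and 0.714 CPM in the naive library. Of 18 interferon-gamma signalling genes 14 were tested. By time, 1 of the 3 co-stimulation and 5 of the 14 interferon-gamma genes passed, against 15.8% of all genes. Among the 5, Irf2 (-0.48, adjusted p = 0.0104), Irf8 (-0.61, adjusted p = 0.00654) and the GTPase gene Iigp1 (-0.58, adjusted p = 0.0439) fell by limma. The kinase gene Jak2 rose (0.56, adjusted p = 0.00388 by limma). For side, 11 of the 14 were above 0, with a median of 0.18.

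Markers of some other cells moved with the classes in part of the libraries. Microglia genes (8 of 8 in the table, none at 0) summed to 705 CPM in PT 7 d infarcted and 347 to 459 CPM elsewhere, and that library had the highest class I sum, 329 CPM against 145 to 264 CPM. Meningeal fibroblast genes (5 of 5, none at 0) were highest in PT 2 m infarcted (171 CPM), PT 7 d LEV infarcted (150 CPM), PT 2 m non-infarcted (126 CPM) and PT 1 m non-infarcted (103 CPM), and lay between 80.0 and 101 CPM in the other 7. The class II sums were highest in the same 4 libraries in the same order, at 41.5, 25.5, 24.4 and 18.9 CPM, and lay between 5.81 and 14.5 CPM in the rest. By gene, the match was partial. Slc6a13 and Col1a2 were also highest in these 4 libraries, and Col1a1 in all of them but PT 1 m non-infarcted. Dcn had the highest mean of the 5 fibroblast genes (64.0 CPM). At PT 2 m and PT 1 m its non-infarcted values were 62.0 and 53.8 CPM. Both PT 1 m LEV libraries had more Dcn (67.7 and 69.0 CPM). The matching values of Lum were 3.32 and 2.80 CPM, below its naive value of 3.64 CPM. Border macrophage genes (8 of 8) summed to 28.8 CPM in PT 7 d infarcted, 32.2 CPM in PT 7 d LEV infarcted and 29.1 CPM in PT 2 m infarcted, against 11.5 to 20.95 CPM elsewhere. Choroid plexus genes went with class II in some comparisons: their median side difference was -1.48 at PT 1 m, 2.00 at PT 1 m LEV and 1.59 at PT 2 m, with the sign of the class II median each time. In others they did not: their sum was 1257 CPM in PT 2 m non-infarcted and 4150 CPM in the naive library. Astrocyte genes (5 of 5, none at 0) summed to 1270 CPM in PT 7 d infarcted, 1121 CPM in PT 2 m infarcted and 647 to 945 CPM elsewhere, and all 5 were above naive at 2 m on both sides (medians 0.90 and 0.63). Endothelial genes were above naive at 2 m by medians of 0.74 and 0.43, in 4 of 5 genes on each side. The part of these cells in the class I and class II values was not tested.

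Lymphocyte markers were close to 0. B cell genes (3 of 5 in the table) summed to 0 to 0.436 CPM (at most 8 reads). T and NK cell genes (6 of 11) summed to 0.374 to 1.31 CPM, with the highest sum in PT 2 m infarcted. Dendritic cell genes (6 of 8) summed to 12.7 to 17.9 CPM, most of it from Flt3 (7.95 to 12.1 CPM), which was highest in the naive library. Cd209a, with a mean of 0.688 CPM, was highest in PT 2 m infarcted (1.53 CPM) and PT 1 m non-infarcted (1.36 CPM). In PT 2 m non-infarcted it was 0.83 CPM, and in the naive library 0.786 CPM. Zbtb46, a transcription factor gene of conventional dendritic cells, was highest in PT 2 m infarcted (4.91 CPM) and PT 7 d LEV infarcted (3.90 CPM). It was lowest in PT 2 m non-infarcted (2.61 CPM). Batf3 was highest in PT 1 m infarcted (2.84 CPM). Itgax, with a mean of 0.206 CPM, was highest in PT 7 d infarcted (0.743 CPM). Ccr7 had reads in 1 library.

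**Figure D3:**
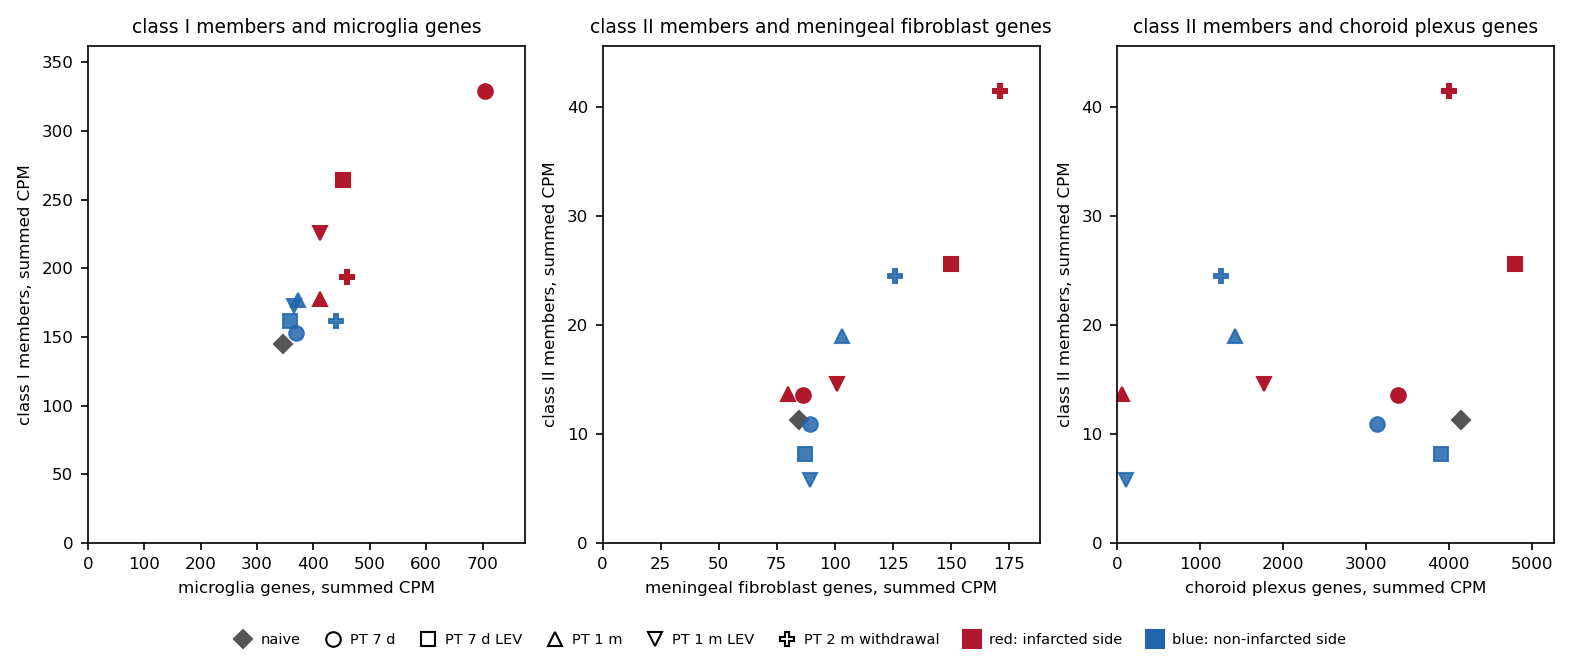
Summed CPM of the class I genes against microglia genes (left), and of the class II genes against meningeal fibroblast (middle) and choroid plexus genes (right); each point is 1 of the 11 libraries, with side by colour and condition by shape. PT 7 d infarcted stands alone at the upper right for class I (329 against 705 CPM), PT 2 m infarcted does so for class II and fibroblast genes (41.5 against 171 CPM), and the choroid plexus panel has high and low class II sums at similar marker levels.

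Across the 11 libraries the class II genes varied together. Pearson r of log2(CPM + 1) was 0.74 to 0.93 over the 6 class II pairs (median 0.85), -0.16 to 0.90 over the 6 class I pairs (median 0.51) and -0.26 to 0.65 over the 16 pairs between classes (median 0.39). The libraries share mice or tissue to an unknown degree, so these are descriptions. Likeness was ranked over 11495 genes with a mean of at least 5 CPM. The members, genes of the pathway and marker lists and genes known by a clone name or identifier were left out of that ranking. Closest to the class I mean were Cyba (r = 0.93), a subunit of the phagocyte NADPH oxidase, and the calcium-binding S100a6 (0.93). Next came Unc93b1, which carries Toll-like receptors (0.91), the complement genes C1qb (0.91) and C1qa (0.91), and then Gusb, Vim and Fzd6. C1qa was at 194 CPM in PT 7 d infarcted and 61.2 to 101 CPM in the others. Most like the class II mean were Wnt5a (r = 0.96), Itm2a (0.95), the transcription factor gene Zic2 (0.94), Itih5 (0.93) and Aebp1 (0.93), followed by Anxa2, the complement inhibitor Serping1 and Slc13a3. Aebp1 was at 34.5 CPM in PT 7 d LEV infarcted, 31.0 in PT 2 m infarcted, 16.6 and 16.4 in the non-infarcted libraries of PT 1 m and PT 2 m and 5.94 to 11.5 CPM in the rest, so the same 4 libraries were high as for class II.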

How the data were processed

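Each CAGE library was prepared from hippocampal total RNA. The authors deposited 1 table of CPM per gene for the 11 libraries. All values above 0 were whole reads of a library's total (within 0.01 read), so totals and reads were recovered. The genome build GRCm38 and the tools HISAT2 2.0.5, BWA 0.7.17 and DESeq2 1.20.0 are named per the submitters' processing notes; no source used here gives their roles or the rule that assigned reads.

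Values were analysed as log2(CPM + 1), which understates changes of low genes, for the 16057 genes with a mean of at least 1 CPM. Limma 3.58.1 (R 4.3.3, eBayes with a trend) was fitted on all of them, with Benjamini-Hochberg adjustment at 0.05. Sides were compared over 10 PT libraries with condition as a block. LEV and time were fitted together on 4 condition means, since the sides of a condition may share mice (1 residual degree of freedom). Their effects on the side difference were fitted on 4 differences. Comparisons with naive, and of 2 m with 1 m LEV, had no test and counted a log2 difference of at least 1 on both sides. Alternatives were TMM and quantile scaling, pseudocounts of 0.5 and 5, no filter or a mean of 5 CPM, no trend, edgeR 4.0.16 and DESeq2 1.42.0 on the recovered reads, other units of the fit, and leaving out libraries. Without 1 library at a time, the missing side of a condition was completed from the other side and the mean side difference.

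The 8 genes and all lists were chosen with earlier results of these data known. All 8 genes were named, plus the 8 genes outside the lists that were most like each class. From each of 5 pathway lists (69 genes, 48 tested), up to 4 with the highest mean and genes that passed were named. Some list genes are not reported here. There were 12 marker lists; none had a member past the threshold for side, and in the blood list Hbb-bs was lower with LEV (-1.02, adjusted p = 0.0351 by limma). Coordinates are from GENCODE M21 (8 of 8 identifiers matched, 7 with version).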

Additional observations from a re-analysis of the deposited data

How the results depend on the processing

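Of 689 values of the 8 genes under alternatives, 579 kept direction and side of the threshold, 71 changed sign, 21 gained and 16 lost the call, all 16 for B2m by time, and 2 moved. Of the 71, 3 passed the threshold with the changed sign, for the side difference by LEV: H2-K1 (-0.47) and H2-D1 (-0.48) without the PT 1 m pair and B2m (0.53) without the PT 7 d pair. For the side comparison, DESeq2 called 14 genes, leaving out 1 pair at a time gave 0 to 50, and the fit with no replicate block called 0. No paired analysis by replicate number was possible because each group has 1 library; conditions paired the sides. Tap1 ranged from -0.026 to 0.23 for side without 1 pair at a time.

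The LEV count of 3 became 0 under TMM, quantile scaling, a pseudocount of 5, no filter, no trend and edgeR, 12 with a pseudocount of 0.5, 1 by DESeq2, 1 with 8 independent libraries, 6 on the infarcted and 52 on the non-infarcted side, and 1 without the 2 libraries low in choroid plexus genes (an alternative chosen after seeing the data). Without 1 library at a time it was 0 to 30. The time count of 2537 became 334 under TMM, 24 with no filter, 657 by edgeR, 818 by DESeq2, 4991 with 8 independent libraries and 561 without those 2 libraries, and 1204 to 2558 without 1 library. Side difference by time had 21 to 196 calls and side difference by LEV 0 to 418 without 1 pair, and TMM gave 1 for LEV. Of all genes past 1 on both sides, those against naive at 2 m were 122 with a pseudocount of 0.5 and 22 with 5, and those against PT 1 m LEV were 123 under TMM and 60 with a pseudocount of 5. The cause of these shifts was not tested.

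Signs of differences near 0 turned. For LEV, B2m was -0.12 without the 2 libraries. On the infarcted side alone Cd74 was 0.19, H2-Aa 0.28, H2-Ab1 0.69 and H2-Eb1 0.51. H2-Ab1 was 0.00018 under TMM, 0.0028 under quantile scaling, 0.026 with a pseudocount of 5, 0.11 by edgeR and 0.11 by DESeq2. H2-Eb1 was 0.0036 with a pseudocount of 5 and 0.013 by edgeR. For time, H2-K1 was -0.012 by edgeR, -0.0098 by DESeq2 and -0.36 on the infarcted side, where Tap1 was -0.10 and H2-Aa -0.24. On the non-infarcted side H2-D1 was 0.10, Cd74 0.046 and H2-Ab1 0.34. H2-Ab1 was 0.034 under quantile scaling. Without the 2 libraries Tap1 was -0.0077, Cd74 0.18, H2-Ab1 0.40 and H2-Eb1 0.0023. For side difference by LEV, H2-D1 was -0.000601 with a pseudocount of 5.

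Without 1 library at a time, LEV differences ran from -0.27 to 0.15 for H2-K1, -0.31 to 0.0155 for H2-D1, -0.36 to 0.035 for Tap1, -0.51 to 0.0655 for H2-Aa, -0.47 to 0.43 for H2-Ab1 and -0.29 to 0.23 for H2-Eb1. Time differences ran from -0.20 to 0.23 for H2-K1, -0.0394 to 0.35 for Tap1, -0.33 to 0.14 for Cd74, -0.21 to 0.36 for H2-Aa, -0.52 to 0.38 for H2-Ab1, -0.50 to 0.0211 for H2-Eb1 and -0.63 to -0.21 for B2m. Without 1 pair of sides at a time, side differences by time ran from -0.85 to 0.28 for Cd74, -1.76 to 0.13 for H2-Ab1 and -0.96 to 0.23 for H2-Eb1. Side differences by LEV, also without 1 pair, ran from -0.47 to 0.69 for H2-K1, -0.48 to 0.49 for H2-D1, -0.66 to 0.53 for B2m and -0.67 to 0.35 for Tap1. In those fits class II kept its sign (lowest 0.64 for H2-Aa). Depth limits Tap1 and H2-Aa, with 20 to 55 and 7 to 38 reads a library.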

Other observations

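Among the other class I genes, H2-Q1 was singled out after its values were seen. It was at 0.643 CPM in the naive library. On the infarcted side it was 0.286 CPM at PT 7 d, 3.69 at PT 7 d LEV, 1.12 at PT 1 m, 1.70 at PT 1 m LEV and 2.997 at PT 2 m. On the non-infarcted side it was 0.498, 0.509, 1.72, 0.715 and 1.66 CPM in the same order. The libraries high in H2-Q1 were thus the 4 that were high in class II genes, with PT 1 m LEV infarcted beside them. PT 7 d infarcted, where H2-K1, H2-D1 and B2m were highest, was not among them. PT 1 m LEV infarcted (1.70 CPM) ranked above PT 2 m non-infarcted (1.66 CPM). H2-Q1 is a low gene (mean 1.41 CPM), and no counting intervals were computed for it. Its side difference was larger with LEV by 1.44 (SE 0.36, adjusted p = 0.665 by limma), which did not pass.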
